A study of Mus musculus with 12 samples.

Results

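Lung tumors of mice in which a mutant oncogene had been off for 24 h were compared with lung tumors in which it was on. Of the 12 arrays of the series, 8 belong to this comparison, 4 in each group, and 20093 of the 45281 probes on the array (10939 of its 19057 named genes) were tested, because their detection p was below 0.05 on at least 4 of these 8 arrays. The samples were chosen by their labels and not by measured values.

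All mice were 19 weeks old and of mixed FVB/SV129 background, and all tumors, the on tumors included, arose in animals that carried the mutant oncogene. The groups are tumors 24 h after the oncogene was inactivated, tumors 48 h after it, and tumors sampled with it on (time 0), with 4 numbered replicates each. Tumors were microdissected from excised lungs and snap-frozen, and their total RNA was hybridised to Illumina mouse BeadChips, on which each probe is carried by many beads. How the oncogene was switched, in which cells it was driven, and whether each tumor came from another mouse are not given in the sources used here, so the p-values rest on the spread among the arrays, part of which may be technical.

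In lung epithelial cells, growth signals from the cell surface reach the nucleus through the ERK kinase cascade. ERK switches on transcription factors of the ETS and AP-1 families and growth factor ligands, and it also induces its own brakes, the DUSP phosphatases and the Sprouty and Spred proteins. Mouse lung tumors that such a signal drives often resemble alveolar type 2 cells, which make surfactant, and they grow among endothelial cells, fibroblasts and macrophages of the lung. ERK and the growth programs coupled to it are also known to raise glucose uptake, glycolysis and the making of ribosomes.

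The promoters of 3 genes that fell at 24 h are shown for the motifs they hold. Ivl and Lif are shown for the AP-1 motif, searched as TGANTCA with N as any base, and Ldha for the E-box CACGTG. Each window runs from 250 bases before to 50 bases after the gene's start in RefSeq (build GRCm38.p6), 5′ to 3′ on the gene's strand, with motif matches in capitals. Both motifs read the same on either strand and do not overlap each other. The Ivl window lies at chr3:92573686-92573985 on the minus strand, the Lif window at chr11:4257318-4257617 on the plus strand and the Ldha window at chr7:46845554-46845853 on the plus strand.
Ivl: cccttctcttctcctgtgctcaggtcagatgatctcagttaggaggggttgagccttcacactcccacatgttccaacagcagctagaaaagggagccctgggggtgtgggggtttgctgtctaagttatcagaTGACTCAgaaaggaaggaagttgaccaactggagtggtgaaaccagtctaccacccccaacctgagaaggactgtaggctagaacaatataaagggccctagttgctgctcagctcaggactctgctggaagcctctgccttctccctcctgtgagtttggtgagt
Lif: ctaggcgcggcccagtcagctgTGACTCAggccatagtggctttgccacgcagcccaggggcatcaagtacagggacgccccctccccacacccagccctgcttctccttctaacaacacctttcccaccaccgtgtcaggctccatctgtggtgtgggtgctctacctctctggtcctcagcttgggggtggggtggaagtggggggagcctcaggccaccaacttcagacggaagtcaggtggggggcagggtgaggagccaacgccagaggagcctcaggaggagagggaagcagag
Ldha: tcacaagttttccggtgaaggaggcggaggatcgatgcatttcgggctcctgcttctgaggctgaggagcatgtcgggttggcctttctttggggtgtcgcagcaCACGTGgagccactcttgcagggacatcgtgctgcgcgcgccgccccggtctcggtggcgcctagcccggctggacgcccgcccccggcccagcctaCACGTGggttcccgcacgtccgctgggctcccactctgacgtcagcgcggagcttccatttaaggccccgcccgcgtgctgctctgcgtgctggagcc

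The AP-1 motif was found in 7.93% of 27025 promoter windows, 1 per gene, and the E-box in 7.24%. Windows on chromosome 18, where Spry4 lies, were left out of all counts given here. Of the ERK output genes that fell, 6 had a window. Of these windows 1, that of Lif, held the AP-1 motif and 0 held the E-box. The E-box was in 1 of 9 windows of glycolysis genes that fell, that of Ldha, which holds it at 2 places. It was in 2 of 11 windows of ribosome biogenesis genes that fell. The AP-1 motif was in 0 of these 9 and 0 of these 11 windows. A match describes the letters of the window and says nothing of what bound there.

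Arrays of the groups overlapped in brightness and in the share of probes detected. Mean intensity was 304 ± 20.9 at 24 h and 259 ± 42.4 with the oncogene on (SD, n = 4 each, exact two-sided permutation p = 0.171, 0.3 adjusted over 3 measures), and 44.5 ± 1.52% and 43.3 ± 0.377% of probes were detected (exact permutation p = 0.2). A typical probe on each array rested on 44 beads. The root mean square distance between arrays over all tested probes was 0.32 to 0.44 log2 units within the 24 h group, 0.32 to 0.42 within the on group and 0.44 to 0.68 between them.

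The 24 h arrays lay on 1 BeadChip and the on arrays on another, so that time and chip cannot be told apart from these 8 arrays alone. The 48 h arrays lay on both chips, 2 on each. With the chip as a fixed term, whose effect only the 48 h arrays then estimate, 138 probes were called in place of 5057. Of the 2915 genes called, 2893 kept their direction in that fit and 89 kept their call.

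At an adjusted p below 0.05 (limma, Benjamini-Hochberg over all probes tested), 2915 of 10939 genes (26.6%) differed at 24 h, 1485 higher (13.6%) and 1430 lower (13.1%). The median log2 fold change over all genes tested was -0.01. Called genes had a median of 0.66 among those that rose and -0.52 among those that fell, so most differences were less than 2-fold: 323 genes were at least 2-fold higher and 191 at least 2-fold lower, and at 4-fold the counts were 25 and 21. The 4 values of the groups did not overlap for 30.7% of all genes and for 87.4% of called genes. A lack of overlap therefore adds little to a call. The 15 largest rises and 15 largest falls named below were picked among called genes without overlap, so their separation was fixed by that choice. With the chip as a fixed term, 3 of these 15 rises kept their call, those of BC018473, Tmem100 and Fmo1. Of the 15 falls 6 kept it, those of Prm1, Manea, Cxcl1, Il24, Ly6g6c and Slc23a3. The other rises and falls lost their call in that fit. Counts of list members below are to be read beside the 13.6% higher and 13.1% lower of all genes. Wherever a list of genes described here had no call in a direction, limma gave at most 2 of its members an unadjusted p below 0.05 in that direction. All values given below for single arrays are normalized log2 intensities, which compare arrays for 1 probe and not probes with each other.

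Prm1, the gene of a protamine that packs DNA in sperm, had the largest fall of all named genes. It measured 6.35, 7.11, 6.85 and 6.43 at 24 h, against 12.86, 13.16, 12.51 and 12.83 in on tumors. Every 24 h array lay more than 5 log2 units below every on array. Its log2 fold change was -6.15 ± 0.23 (SE, adjusted p = 2.13e-08), another probe of the gene gave -6.16, and the fit that held a chip term gave a change of -5.63 (adjusted p = 3.91e-05). The end of this gene is a common part of transgene constructs, and which transcript the probes bound in these tumors was not tested.

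Ivl encodes involucrin, a protein of the cornified envelope of squamous cells. It measured 5.22, 7.64, 6.20 and 5.77 at 24 h, against 10.13, 10.21, 10.05 and 9.64 with the oncogene on. The 24 h arrays spread widely, but even the highest of them stayed below every on array. The log2 fold change was -3.80 ± 0.61 (adjusted p = 0.00128). Manea, a Golgi enzyme that trims sugar chains of glycoproteins, measured 8.19, 8.52, 8.21 and 8.28 at 24 h, against 11.29, 12.32, 12.18 and 11.50 in on tumors. The 24 h values were close together, and the groups were separate by over 2 log2 units (log2 fold change -3.52 ± 0.23, adjusted p = 8.25e-06, and 0.0139 once the chip was a term).

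Cxcl1, a chemokine that draws neutrophils, measured 6.24, 6.16, 6.15 and 6.69 at 24 h, against 8.96, 9.11, 9.31 and 9.51 in on tumors. No array of either group came near the other group, and its fall of -2.91 ± 0.26 kept its call with the chip as a fixed term (adjusted p = 8.38e-05, and 0.0328 with the chip). Il24, a cytokine gene, was detected on 2 of 4 arrays at 24 h and on all 4 on arrays (-2.22 ± 0.21, adjusted p = 0.000104). Tnfsf9, a ligand that costimulates T cells, fell by 2.66 (SE 0.54, adjusted p = 0.00417), and Sstr2, a somatostatin receptor, fell by 2.47 (SE 0.28, adjusted p = 0.000246).

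Prss22, a serine protease of airway epithelium, was below detection on all 4 arrays at 24 h and detected on all 4 on arrays, where it was at least 4.42-fold brighter (adjusted p = 0.000525). It passed the detection filter through the on arrays alone, so its direction was fixed by the filter and the p-value is no support for it. Ly6g6c, a small surface protein of the Ly6 family, fell by 2.39 and Slc23a3, a transporter-like protein, by 2.41 (adjusted p = 0.000146 and 8.38e-05). Both kept their call with the chip as a fixed term. Ppp1r3b, which brings a phosphatase to glycogen, fell by 2.30, and B3gnt7, an enzyme that extends sugar chains, fell by 2.14. Prg2, known from eosinophil granules, had a log2 fold change of -2.20 ± 0.66 (adjusted p = 0.0285), and its call was lost without any of 24 h replicates 1, 2 and 4 or on replicates 2 and 3, where adjusted p was 0.0572 to 0.0684.

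BC018473, a transcript known by its clone name, measured 8.72, 10.58, 9.58 and 9.23 at 24 h and lay between 4.25 and 4.27 on the on arrays, where it was not detected. It was at least 26.3-fold brighter at 24 h (adjusted p = 1.06e-06, and 0.00152 with the chip). It passed the detection filter through the 24 h arrays alone and had to be higher there, so the p-values do not support its direction. The 48 h arrays lay between 4.21 and 4.33, also the 2 that shared the BeadChip of the 24 h arrays. BC018473 was therefore bright on the 24 h arrays and at background on the other 8 arrays of the series.

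Tmem100, a membrane protein of lung endothelium that responds to BMP signals, measured 10.57, 9.76, 9.61 and 10.49 at 24 h, against 7.15, 6.78, 6.60 and 6.60 in on tumors. All 24 h arrays were above all on arrays by more than 2 log2 units (log2 fold change 3.33 ± 0.30, adjusted p = 8.38e-05, and 0.0398 once the chip was a term). Hpgd, which degrades prostaglandins, measured 9.06, 8.71, 8.03 and 9.09 at 24 h, against 6.41, 5.86, 6.10 and 6.12 with the oncogene on (2.60 ± 0.30, adjusted p = 0.000253). Fmo1, a drug-metabolising monooxygenase, rose by 2.29 ± 0.29 and kept its call with the chip (adjusted p = 0.000373, and 0.0221 with the chip).

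Mfap4, a protein of elastic fibres, measured 10.74, 9.45, 9.80 and 10.12 at 24 h, against 7.37, 6.97, 7.02 and 6.25 in on tumors (3.12 ± 0.32, adjusted p = 0.000136). Ogn, a small proteoglycan of connective tissue, rose by 3.50 ± 0.44 (adjusted p = 0.000321), and Pcolce2, which helps to process procollagen, rose by 2.69 ± 0.37 (adjusted p = 0.000554). The groups of these 3 genes did not overlap, as the rule that named them required. Inmt, a methyltransferase that is abundant in lung, rose by 2.24 ± 0.42 (adjusted p = 0.00297).

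Sirpb1a, an immune receptor of myeloid cells, rose by 2.62 ± 0.36 (adjusted p = 0.000592), and S100a8, a protein that neutrophils hold in large amounts, by 2.38 ± 0.43 (adjusted p = 0.00235). Il6st, the signalling subunit shared by receptors of the IL-6 family, rose by 2.51 ± 0.51 (adjusted p = 0.0042). Pltp, which moves phospholipids between lipoproteins, and Slc38a5, an amino acid transporter, rose by 2.44 and 2.32. Dpep1, a membrane dipeptidase, was below detection on all on arrays and at least 3.78-fold brighter at 24 h (adjusted p = 0.000313), and like BC018473 it had to be higher there to pass the filter.

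**Figure D1:**
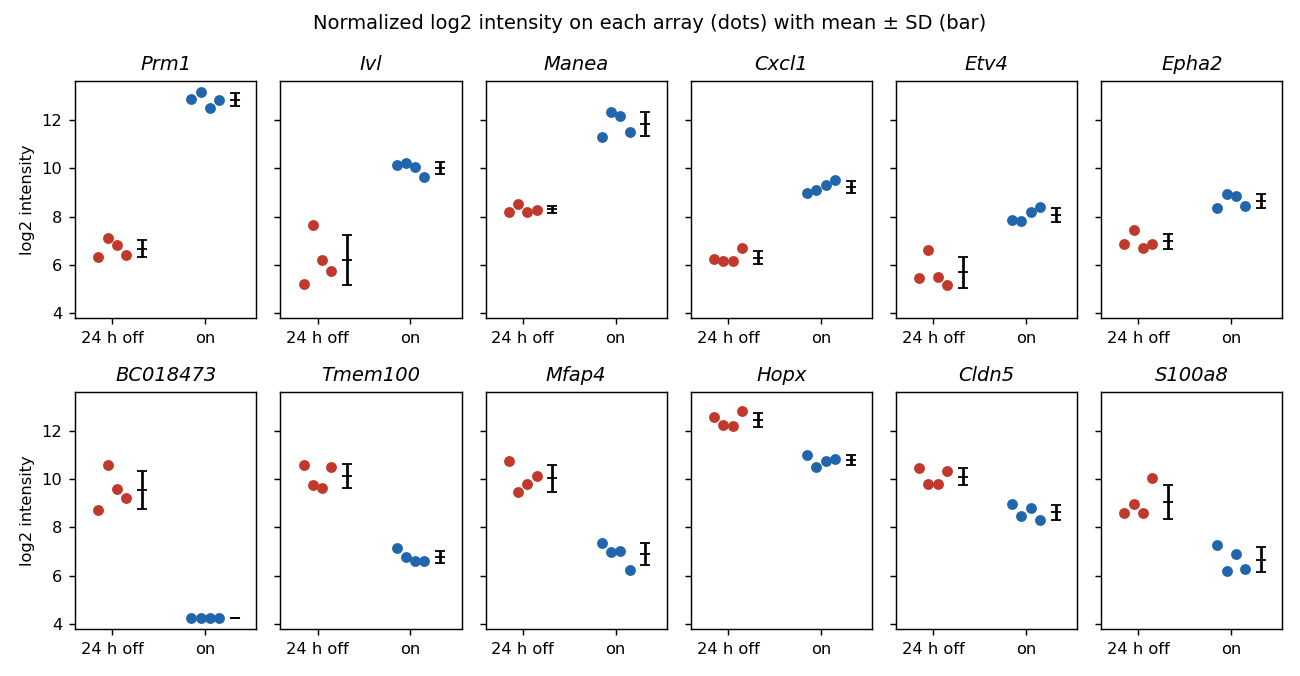
Normalized log2 intensity of 12 genes on each of the 4 arrays at 24 h (red, left) and the 4 on arrays (blue, right), with the mean ± SD as a black bar beside the dots. The upper row holds genes that fell at 24 h and the lower row genes that rose. No dot of a group reaches the other group in any panel, but genes of the 15 largest rises and falls were picked for this. BC018473 lies at 4.25 to 4.27 on all on arrays.

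Between 24 h and 48 h, 5599 of 20093 probes (27.9%) differed, some of the genes above among them. Mean log2 intensity of Tmem100 was 6.78 ± 0.26 with the oncogene on, 10.11 ± 0.49 at 24 h and 7.27 ± 0.64 at 48 h (SD, n = 4 each), and the difference between 24 h and 48 h was 2.84 (adjusted p = 0.000236). Mfap4 averaged 6.90 ± 0.47 on, 10.03 ± 0.55 at 24 h and 7.93 ± 0.52 at 48 h. Cxcl1 averaged 9.22 ± 0.24 on, 6.31 ± 0.26 at 24 h and 6.78 ± 0.65 at 48 h, where the difference of -0.47 did not pass the test (adjusted p = 0.201). Prm1 averaged 12.84 ± 0.26 on, 6.69 ± 0.36 at 24 h and 7.60 ± 0.45 at 48 h, a difference of -0.92 between 24 h and 48 h (adjusted p = 0.0126). These comparisons share arrays, so that their values are set side by side only.

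Feedback and output genes of ERK fell. Of 24 listed genes 19 were tested, and 11 fell and none rose (13.1% and 13.6% of all genes tested), with a median log2 fold change of -0.68. The 8 others had changes of -0.66 to 0.28. In the fit with a chip term the median was -1.04, the 11 genes kept their direction and 1, Epha2, kept its call.

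Etv4, an ETS transcription factor that ERK signals induce, measured 5.48, 6.64, 5.52 and 5.19 at 24 h, against 7.86, 7.82, 8.18 and 8.40 in on tumors. The highest 24 h array was over 1 log2 unit below the lowest on array (-2.36 ± 0.38, adjusted p = 0.0014). Its close relative Etv5, also a marker of alveolar type 2 cells, had a change of -0.05 (adjusted p = 0.902). Dusp4, a phosphatase that switches ERK off in the nucleus, measured 7.10, 8.06, 7.77 and 7.60 at 24 h, against 9.18, 9.51, 9.36 and 9.23 with the oncogene on (-1.69 ± 0.35, adjusted p = 0.00539). The Dusp4 groups did not overlap, and its 2 other tested probes, at -0.61 and -1.20, were called lower as well.

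Dusp6 and Spry4, textbook brakes of the ERK cascade, were chosen after their values were seen. Both are among the 11 list members that fell, so they are no separate result. Of the other brakes in the list, Spred1 at -0.57 and Spred2 at -1.09 were called lower. Dusp5 at -0.45, Dusp7 at 0.21 and Spred3 at -0.18 were not called, and Spry1 and Spry2 were not tested. Dusp6, the cytoplasmic ERK phosphatase, measured 11.42, 11.52, 11.33 and 10.94 at 24 h, against 12.29, 12.76, 12.55 and 12.61 in on tumors (-1.25 ± 0.24, adjusted p = 0.00337). Spry4, a Sprouty protein that acts upstream of ERK, fell by 1.10 (SE 0.20, adjusted p = 0.00233). Lif, a cytokine of the IL-6 family whose promoter window holds the AP-1 motif, measured 4.95, 4.98, 4.69 and 4.66 at 24 h, against 5.90, 7.38, 6.92 and 5.89 with the oncogene on. It was detected on 2 of 4 arrays at 24 h and on all on arrays (-1.70 ± 0.28, adjusted p = 0.00137).

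Hbegf, a ligand of the EGF receptor, was the 1 of 14 tested EGF and FGF family ligands that fell, and 3 rose, which is near the shares over all genes (13.1% lower and 13.6% higher). It measured 7.44, 7.93, 7.22 and 7.40 at 24 h, against 8.55, 9.35, 9.39 and 8.70 in on tumors (-1.50 ± 0.24, adjusted p = 0.0014, and 0.0414 once the chip was a term). Its groups did not overlap. Fgf7, a growth factor that mesenchymal cells make for epithelium, was higher at 24 h by 0.99 ± 0.20 (adjusted p = 0.00419), and without any of 24 h replicates 1 and 4 or on replicates 3 and 4 the count of ligands called higher was 1.

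Of 18 tested receptor tyrosine kinases, 3 rose and 3 fell, with a median of 0.10, also near those shares. Epha2 is counted in the ERK list as well, and Pdgfra in the list of fibroblast markers below. Epha2, an ephrin receptor, measured 6.87, 7.45, 6.72 and 6.89 at 24 h, against 8.34, 8.92, 8.85 and 8.44 with the oncogene on (-1.65 ± 0.21, adjusted p = 0.000405). Igf1r, the IGF receptor, measured 7.81, 8.30, 7.69 and 7.72 at 24 h, against 8.85, 9.05, 8.95 and 8.91 in on tumors (-1.06 ± 0.14, adjusted p = 0.000483), and the groups did not overlap. Erbb2 fell by 0.46 (SE 0.11, adjusted p = 0.00984). The receptors that rose were Kit by 1.34, Pdgfra, a receptor of fibroblasts, by 1.06 and Axl by 0.64 (adjusted p = 0.00192, 0.0116 and 0.0172). The other tested probe of Kit gave 0.45 and was not called.

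Immediate early genes, which cells transcribe within minutes of a stimulus, were split: 3 of 17 tested rose and 5 fell, with a median of -0.02, and -0.34 with a chip term. Junb, a subunit of AP-1, measured 9.16, 9.21, 8.78 and 9.24 at 24 h, against 10.10, 10.49, 10.66 and 10.07 in on tumors (-1.23 ± 0.15, adjusted p = 0.000319, and 0.0445 once the chip was a term). Egr1, which ERK induces directly, lay between 9.84 and 10.02 at 24 h and between 11.47 and 11.92 with the oncogene on. The groups did not overlap (-1.66 ± 0.45, adjusted p = 0.0196), though without on replicate 3 the adjusted p was 0.0519. Its 48 h arrays spread from 10.27 to 12.90, and this spread enters the error of the fit.

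Fos, another AP-1 subunit, which was chosen after its values were seen, lay between 8.39 and 8.54 at 24 h and between 9.43 and 9.81 in on tumors, and its change of -1.17 did not pass the test (adjusted p = 0.0833). Its 48 h arrays ran from 8.22 to 10.89. Socs3, a feedback inhibitor of cytokine signals, fell by 0.89 (SE 0.12, adjusted p = 0.000466). Klf2, a factor of quiescent and endothelial cells, rose by 1.13 ± 0.27 and Ccn2, a matrix-bound growth factor, by 0.61 ± 0.13 (adjusted p = 0.0104 and 0.00518).

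Of 15 tested genes for glucose transporters and glycolytic enzymes, 9 fell and none rose. Their median was -0.50, and -0.76 with a chip term, where 1 call, that of Ldha, held. Without 24 h replicate 1, on replicate 2 or on replicate 3 the count was 5. Slc2a1, the glucose transporter GLUT1, measured 8.25, 8.83, 8.76 and 7.93 at 24 h, against 9.47, 9.81, 9.95 and 9.20 in on tumors (-1.16 ± 0.21, adjusted p = 0.00222). Ldha, which turns pyruvate into lactate and whose promoter window holds the E-box, measured 12.36, 12.65, 12.39 and 12.27 at 24 h, against 13.40, 13.37, 13.24 and 13.40 with the oncogene on. The Ldha groups were tight and separate (-0.93 ± 0.11, adjusted p = 0.000313), and the call held with the chip as a fixed term (adjusted p = 0.0348). Pfkl, a phosphofructokinase, fell by 0.96 (SE 0.14, adjusted p = 0.00077) and Tpi1, triose phosphate isomerase, by 0.87 (SE 0.18, adjusted p = 0.00531). Other tested probes gave -0.29 for Pfkl, not called, and 0.00, not called, and -0.63 for Tpi1. Of 22 tested genes of oxidative phosphorylation limma called 0, with 1 at an unadjusted p below 0.05: Atp5b, a subunit of ATP synthase, had a change of -0.06 and Cox4i1, of cytochrome oxidase, 0.10 (adjusted p = 0.62 and 0.434).

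Ribosome biogenesis genes, which make and process ribosomal RNA, fell too, by smaller amounts. Of 18 tested genes 12 fell and none rose, with a median of -0.45. In the fit with a chip term the median was -0.46, and limma called 0 of them, with 8 lower at an unadjusted p below 0.05. Nop58, a core protein of the particles that methylate ribosomal RNA, measured 8.93, 9.05, 9.0 and 8.94 at 24 h, against 9.79, 10.22, 10.11 and 9.98 in on tumors (-1.04 ± 0.11, adjusted p = 0.000158). Gar1, a protein of the pseudouridylation particles, fell by 0.57 and Rrp12, which helps export ribosomal subunits, by 0.55 (adjusted p = 0.00263 and 0.00188). The other tested probe of Gar1 gave 0.24 and was not called. On the brightest probes of these 3 genes, the lowest on array was above the highest 24 h array.

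Of 16 tested genes of the hypoxia response, 5 fell and 1 rose, with a median of -0.15, and -0.38 with a chip term. In the fit with that term limma called 0 of them, with 6 lower at an unadjusted p below 0.05. The rise was that of Car9 (0.39, adjusted p = 0.0453). Its call was lost without any of 24 h replicates 1, 2 and 3 or on replicates 1, 2 and 4. Slc2a1 belongs to this list as well. Egln3, a prolyl hydroxylase that marks HIF for decay and is itself a HIF target, fell by 2.18 (SE 0.44, adjusted p = 0.00412). Its other probe gave -0.29 and was not called. Ankrd37 fell by 1.48 and Ndrg1, a stress-induced protein, by 1.08 (adjusted p = 0.00303 and 0.00438). Vegfa, the growth factor of blood vessels and a well-known HIF target, had a change of 0.05.

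**Figure D2:**
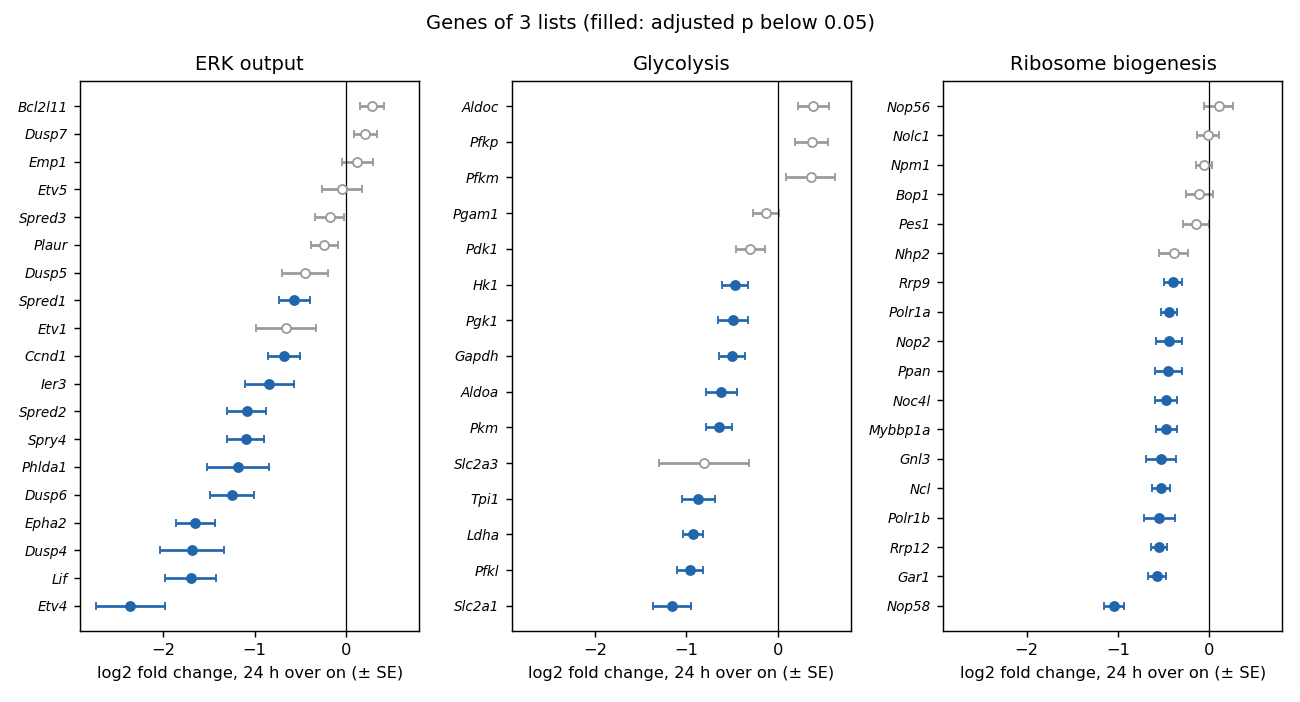
Log2 fold change at 24 h over on (± SE) of every tested gene of the ERK output, glycolysis and ribosome biogenesis lists, with filled symbols for genes at an adjusted p below 0.05. All filled symbols lie left of 0, with Etv4 the farthest at -2.36, Slc2a1 at -1.16 and Nop58 at -1.04.

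Of 16 tested mitosis genes 6 rose and none fell, with a median of 0.38, and without 24 h replicate 3 or on replicate 3 the count was 3. With a chip term limma called 0 of them, with 5 higher at an unadjusted p below 0.05. Cdk1, the kinase that starts mitosis, measured 7.45, 7.07, 7.62 and 7.27 at 24 h, against 7.0, 6.75, 6.63 and 6.33 in on tumors (0.67 ± 0.16, adjusted p = 0.0111). The groups were separate by a narrow margin. Birc5, which is survivin, rose by 0.64 ± 0.15 and Cenpa, the centromere histone, by 0.56 ± 0.12 (adjusted p = 0.00901 and 0.00723). Cdk1 averaged 6.68 ± 0.28 with the oncogene on, 7.35 ± 0.24 at 24 h and 6.07 ± 0.22 at 48 h.

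The list of genes for DNA replication had 3 of 22 members higher and 2 lower, with a median of 0.05. These counts are near or below the shares over all genes (13.6% higher and 13.1% lower). Without 24 h replicate 3 or any of on replicates 3 and 4 the count of higher members was 1, and that of lower members was 0 without any of 24 h replicates 1, 3 and 4 or on replicates 1 and 4 and 1 without on replicate 2. Ccnd1, the cyclin that growth signals induce, is a member of the ERK list and fell by 0.68 (SE 0.17, adjusted p = 0.0148). Of 13 tested cell cycle inhibitors 4 rose and 1 fell, with a median of 0.17. When single arrays were left out, 1 to 4 were higher and 0 to 2 lower, and with a chip term 0 kept their call. Cdkn2c, an inhibitor of the cyclin D kinases, rose by 0.75 ± 0.12 (adjusted p = 0.00119) and its 2 other probes were called higher too. Cdkn1a was the 1 that fell (-0.33 ± 0.10, adjusted p = 0.0246), and Cdkn1b, at -0.14, was not called. Of 19 tested apoptosis regulators 2 rose and 1 fell, near or below the shares over all genes. The count that rose was 0 without any of 24 h replicates 1 and 4 or on replicates 1, 2 and 3, 1 without 24 h replicate 2 and 4 without on replicate 4. The fall was that of Bcl2l1, the survival factor BCL-XL (-1.28 ± 0.21, adjusted p = 0.00151). Bcl2l1 measured 8.06, 8.45, 7.87 and 8.58 at 24 h, against 9.42, 9.78, 9.58 and 9.27 with the oncogene on, and its 2 other probes fell by 1.03 and 0.95.

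Markers of alveolar type 2 cells, by which the label of lung tumors was checked, were bright on all 8 arrays. Of 15 tested markers 2 fell and none rose, with a median of -0.05. Sftpc, surfactant protein C and chosen after its values were seen, measured 14.28, 14.19, 14.25 and 14.35 at 24 h, against 14.07, 14.25, 14.25 and 13.92 in on tumors, and the groups overlapped (0.14 ± 0.10, adjusted p = 0.314). Sftpd, surfactant protein D, had a change of -0.01 (adjusted p = 0.949). The 2 that fell were Napsa, the protease that processes surfactant protein B (-0.45 ± 0.10, adjusted p = 0.00733, with other probes at -0.14, not called, and -0.40), and Chil1, a chitinase-like protein. The Chil1 change of -1.17 (adjusted p = 0.0222) lost its call without any of 24 h replicates 1 and 4 or on replicates 3 and 4 (adjusted p of 0.0525 to 0.0612), and was 0.02 in the fit with a chip term. The summed intensity of the 15 markers was 201000 to 214000 at 24 h and 218000 to 221000 with the oncogene on.

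Keratins of simple epithelium fell together. Krt19 measured 8.54, 8.72, 8.72 and 8.46 at 24 h, against 9.77, 10.17, 10.03 and 10.09 in on tumors. The groups were tight and more than 1 log2 unit apart (-1.40 ± 0.11, adjusted p = 5.5e-05, and 0.0221 once the chip was a term). Krt8 fell by 1.13 and Krt18 by 1.16 (adjusted p = 0.000572 and 0.00155). Both lost their call with the chip as a fixed term (adjusted p = 0.0615 and 0.141). Of 14 tested general epithelial markers 7 fell and 1 rose, with a median of -0.57. The rise, that of Tjp1 at 0.46 (adjusted p = 0.0493), lost its call without any of 24 h replicates 1, 2 and 3 or on replicates 2, 3 and 4. Elf3, an epithelial ETS factor, was among those that fell (-0.98 ± 0.15, adjusted p = 0.00103). Cdh1, E-cadherin, had a change of -0.13. The list of gastric, basal and high-grade tumor markers shares the keratins and Slc2a1, and 6 of its 12 tested members fell and none rose. With the chip as a fixed term, 1 call was kept in each of these lists, that of Krt19. The summed intensity of the epithelial markers was 15900 to 20500 at 24 h and 26200 to 31500 with the oncogene on.

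Markers of alveolar type 1 cells, the thin cells that exchange gas, rose. Of 13 tested markers 9 rose and none fell, with a median of 0.89, and 2 kept their call with the chip as a fixed term. Hopx, a homeodomain protein, measured 12.57, 12.22, 12.18 and 12.79 at 24 h, against 11.01, 10.49, 10.76 and 10.84 in on tumors (1.66 ± 0.17, adjusted p = 0.000123, and 0.0451 with the chip). Igfbp2, an IGF-binding protein, measured 8.69, 8.12, 8.26 and 8.29 at 24 h, against 6.81, 6.55, 7.02 and 6.84 with the oncogene on (1.53 ± 0.15, adjusted p = 0.000114, and 0.0338 with the chip). Neither gene's groups overlapped. Cav1, a caveolar protein that endothelium also makes, rose by 1.74 ± 0.19 and Rtkn2 by 1.60 ± 0.28 (adjusted p = 0.000204 and 0.00198). Aqp5, a water channel of these cells, had a change of -0.18 (adjusted p = 0.345), and the summed intensity of the 13 markers was 35300 to 44900 at 24 h and 26000 to 29800 with the oncogene on.

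**Figure D3:**
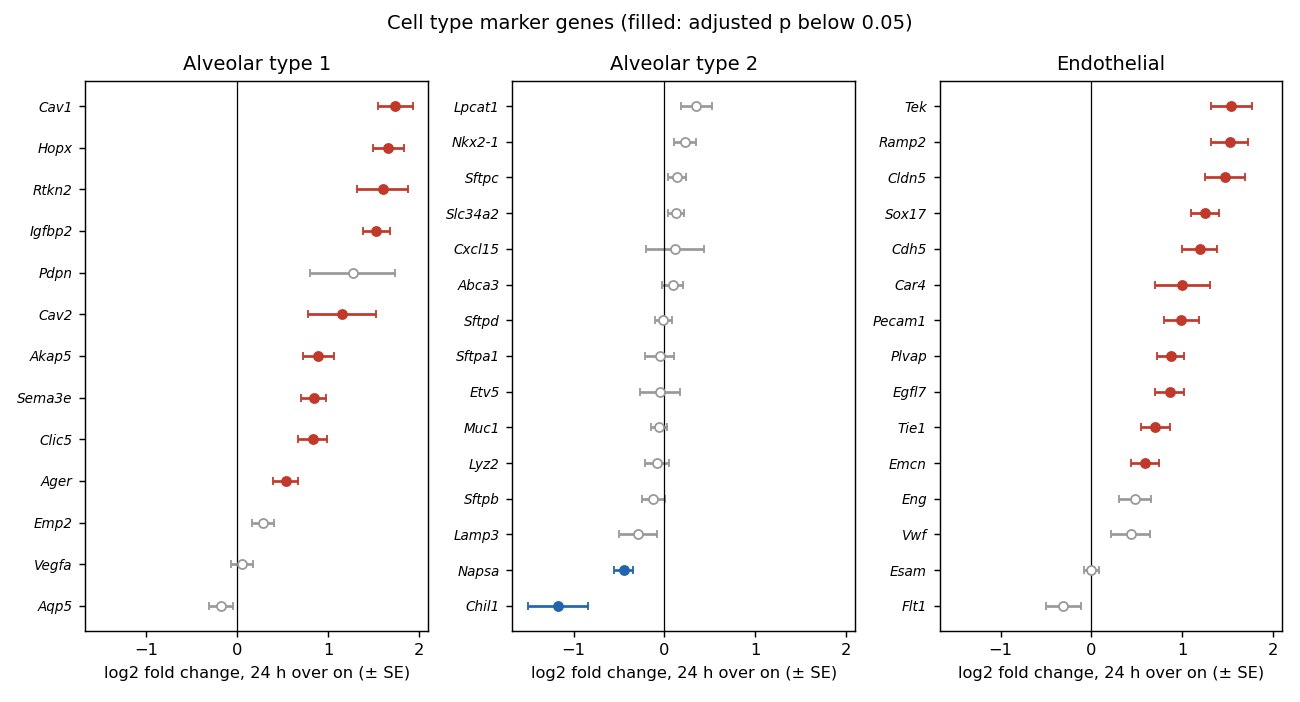
Log2 fold change at 24 h over on (± SE) of every tested marker of alveolar type 1, alveolar type 2 and endothelial cells, with filled symbols for genes at an adjusted p below 0.05. Filled symbols of type 1 and endothelial markers all lie right of 0, and those of type 2 markers, Napsa and Chil1, left of it.

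Endothelial markers rose in the same arrays. Of 15 tested markers 11 rose and none fell, with a median of 0.87, and the 1 call that held with the chip as a fixed term was Cldn5. Cldn5, the claudin of endothelial junctions, measured 10.47, 9.79, 9.80 and 10.32 at 24 h, against 8.95, 8.46, 8.81 and 8.29 in on tumors (1.47 ± 0.22, adjusted p = 0.000901). Its groups did not overlap. Tek, the angiopoietin receptor, rose by 1.54 ± 0.23, Ramp2, a receptor partner for adrenomedullin, by 1.52 ± 0.20 and Sox17, an endothelial transcription factor, by 1.25 ± 0.15 (adjusted p = 0.000788, 0.000458 and 0.000313). Esam, an adhesion molecule of endothelium and the brightest tested marker of the list, had a change of 0.00 (adjusted p = 0.998). Summed intensity was 17100 to 23100 at 24 h and 12600 to 13900 with the oncogene on.

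Fibroblast and matrix genes rose as well. Of 16 tested fibroblast and smooth muscle markers 8 rose and none fell, with a median of 0.47, and of 19 tested matrix genes 11 rose and none fell, with a median of 0.64. Both lists hold Col1a1, Col1a2 and Col3a1, so their counts are not separate. In the fit with a chip term limma called 0 of either list, with 5 and 4 members higher at an unadjusted p below 0.05, and the medians were 0.56 and 0.33. Mmp2, a gelatinase of fibroblasts, measured 10.36, 9.93, 9.83 and 10.38 at 24 h, against 8.27, 8.38, 8.46 and 7.58 in on tumors (1.95 ± 0.23, adjusted p = 0.000288). Col3a1, a fibrillar collagen, measured 8.94, 8.48, 8.96 and 8.60 at 24 h, against 7.30, 7.02, 6.40 and 6.86 with the oncogene on (1.86 ± 0.28, adjusted p = 0.000926). Both genes were higher on every 24 h array than on any on array. Eln, elastin, rose by 1.74 ± 0.32, Lox, which cross-links collagen and elastin, by 1.35 ± 0.22 and Tcf21, a factor of lung fibroblasts, by 2.06 ± 0.36 (adjusted p = 0.00269, 0.00157 and 0.00197). Smooth muscle genes of the list were not called, among them Acta2 at 0.29, Myh11 at 0.36 and Tagln at -0.10. The summed intensity of the fibroblast and smooth muscle markers was 15600 to 27000 at 24 h and 6900 to 10000 with the oncogene on.

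Of the 4 tested markers of mesothelium, the sheet that covers the lung, Upk1b passed the filter through the 24 h arrays alone and had to be higher there, and the other 3 rose. Upk3b measured 7.29, 6.74, 6.52 and 7.45 at 24 h, against 4.24, 4.39, 4.30 and 5.04 in on tumors, where it was detected on 1 of 4 arrays (2.51 ± 0.31, adjusted p = 0.000328). Gpm6a rose by 1.13 ± 0.16 and kept its call with the chip as a fixed term (adjusted p = 0.000557, and 0.0481 with the chip). Msln, mesothelin, rose by 0.90 ± 0.21 (adjusted p = 0.00866), and Upk1b, not detected on any on array, was at least 1.96-fold brighter at 24 h (adjusted p = 0.000539). Summed intensity, with Upk1b included, was 237 to 385 at 24 h and 95.7 to 129 with the oncogene on. Part of this difference was therefore fixed by the filter.

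Of 9 tested erythroid and blood markers 5 rose and none fell, with a median of 1.21, and the count was 2 without 24 h replicate 1 and 3 without 24 h replicate 3 or on replicate 4. The median was 0.68 with a chip term, where limma called 0 of them, with 0 higher and 1 lower at an unadjusted p below 0.05. Hba-a1, a chain of hemoglobin, measured 13.55, 12.29, 13.36 and 12.58 at 24 h, against 10.65, 11.47, 11.43 and 10.72 in on tumors (1.88 ± 0.47, adjusted p = 0.0136). Hbb-b2 rose by 1.86 ± 0.38 (adjusted p = 0.00479), though globin genes share sequence and probes may not tell them apart. Summed intensity of the blood markers was 12700 to 29100 at 24 h and 4830 to 8420 with the oncogene on.

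In bulk tumor RNA, more cells of a type and more RNA per cell cannot be told apart. The marker sums of endothelium, fibroblasts, mesothelium, blood and type 1 cells were each higher on all 4 arrays at 24 h than on any on array. The mesothelial sum includes Upk1b, which had to be higher at 24 h. The part of tissue make-up in the rises above was not tested.

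**Figure D4:**
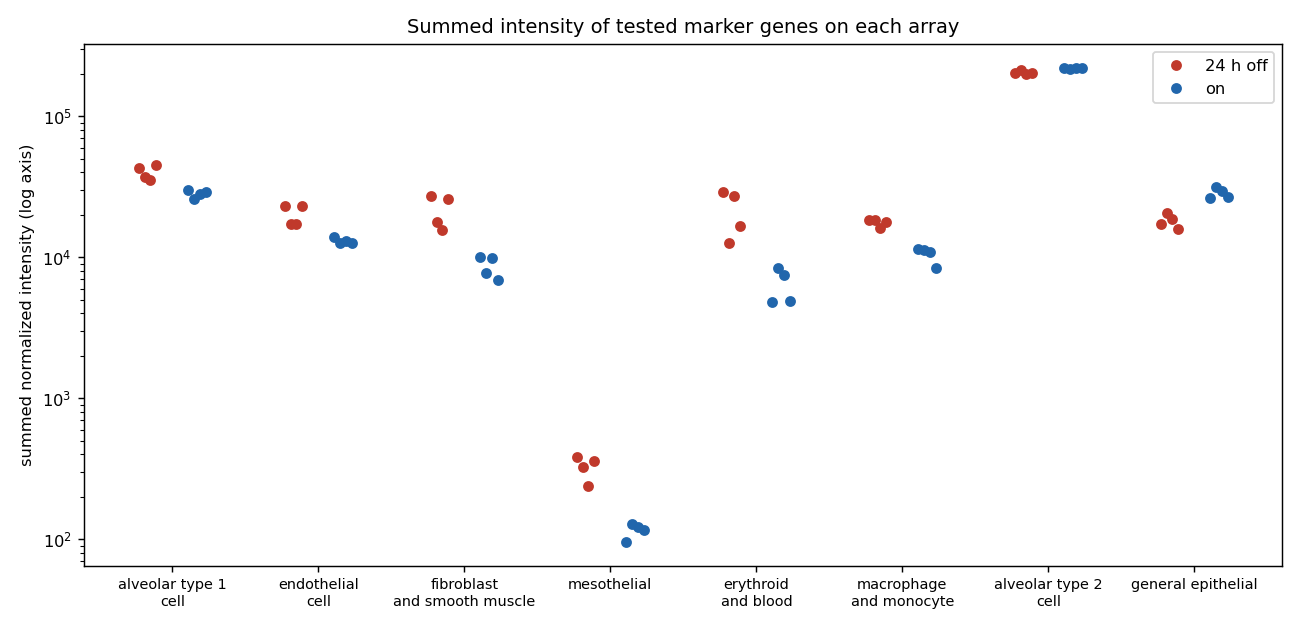
Summed normalized intensity of the tested markers of 8 cell types on each array (log axis), at 24 h (red, left of each pair) and with the oncogene on (blue, right). The 8 types are a choice among the cell type lists. For 6 of the 8 types all 24 h arrays lie above all on arrays, and for type 2 and general epithelial markers they lie below. In the lists not shown, sums of club cell, neutrophil, T and NK, B and plasma, dendritic and mast, and adipose and muscle markers overlapped. Those of ciliated cell markers and of gastric, basal and high-grade tumor markers were lower on all 24 h arrays. General epithelial sums are 15900 to 20500 at 24 h and 26200 to 31500 on. The mesothelial sum includes Upk1b, which passed the detection filter through the 24 h arrays alone.

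Among immune cells, macrophage markers had 5 of 14 tested members higher and none lower, with a median of 0.63. Their median was 0.13 with a chip term, where limma called 0 of them, with 2 higher at an unadjusted p below 0.05. Adgre1, an adhesion receptor of macrophages, measured 8.76, 8.36, 8.69 and 8.74 at 24 h, against 7.56, 7.34, 6.94 and 7.26 in on tumors, with no overlap (1.36 ± 0.21, adjusted p = 0.00103). Csf1r, the receptor for the macrophage growth factor, rose by 1.14 ± 0.16, Fcgr3, a receptor for antibodies, by 1.04 ± 0.19 and Ms4a7 by 1.02 ± 0.25 (adjusted p = 0.000627, 0.00293 and 0.0117). The other probe of Ms4a7 gave 0.52 and was not called. The complement genes C1qa, C1qb and C1qc, which macrophages make, had changes of 0.26, 0.27 and 0.54 and were not called. Macrophage marker sums were 16000 to 18500 at 24 h and 8400 to 11400 with the oncogene on.

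Of 7 tested neutrophil markers 3 rose, S100a8, its partner S100a9 (1.89 ± 0.36, adjusted p = 0.00294) and the growth factor receptor Csf3r, whose other probe was not called, and none fell. The median of these 7 was 0.07, and 0.85 with a chip term. Their lowest change was -0.91, and limma gave 1 of them an unadjusted p below 0.05 for a fall. Of 10 tested markers of T and NK cells 2 rose and none fell, where 13.6% of all genes tested rose. They were Cd2, an adhesion molecule of T cells, by 1.36 ± 0.21 and Klrd1, a receptor of NK cells, by 1.56 ± 0.30 (adjusted p = 0.0011 and 0.00326). With a chip term limma called 0 members of both lists. At an unadjusted p below 0.05, 3 neutrophil and 2 T and NK markers were higher in that fit. Cd3d, Cd3e and Cd3g, chains of the T cell receptor complex, had changes of 0.71, 0.93 and 0.77 and were not called.

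Chemokines and inflammatory cytokines had 4 of 17 tested members higher and 1, Cxcl1, lower, beside 13.6% higher and 13.1% lower of all genes tested. Ccl6, a chemokine of macrophages, measured 9.60, 9.81, 9.83 and 9.82 at 24 h, against 8.95, 8.12, 8.19 and 7.71 in on tumors (1.52 ± 0.32, adjusted p = 0.00508). Its mean was 8.24 ± 0.51 with the oncogene on, 9.77 ± 0.11 at 24 h and 6.81 ± 0.72 at 48 h. Cxcl12, which stromal cells make, rose by 1.26 ± 0.14 (adjusted p = 0.000206), and its 2 other tested probes, at 0.53 and 0.43, were not called. Interferon-induced genes had 6 of 18 members higher and none lower, with a median of 0.45, and the count was 2 without 24 h replicate 1, 24 h replicate 3 or on replicate 4, 3 without on replicate 1, and 3 with the replicate number as a block. Ifit2 and Ifit3, inhibitors of translation of foreign RNA, rose by 1.5 ± 0.18 and 1.39 ± 0.25 (adjusted p = 0.000288 and 0.00257), and Ifit2 kept its call with the chip as a fixed term (adjusted p = 0.0227).

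Few antigen presentation genes were called. Of 11 tested genes of MHC class I limma called 0, with 1 at an unadjusted p below 0.05, and of 11 of class II 1 rose, Ctss, the cathepsin that trims the invariant chain (1.53 ± 0.22, adjusted p = 0.000714). The invariant chain itself, Cd74, had a change of 0.21 (adjusted p = 0.126).

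**Figure D5:**
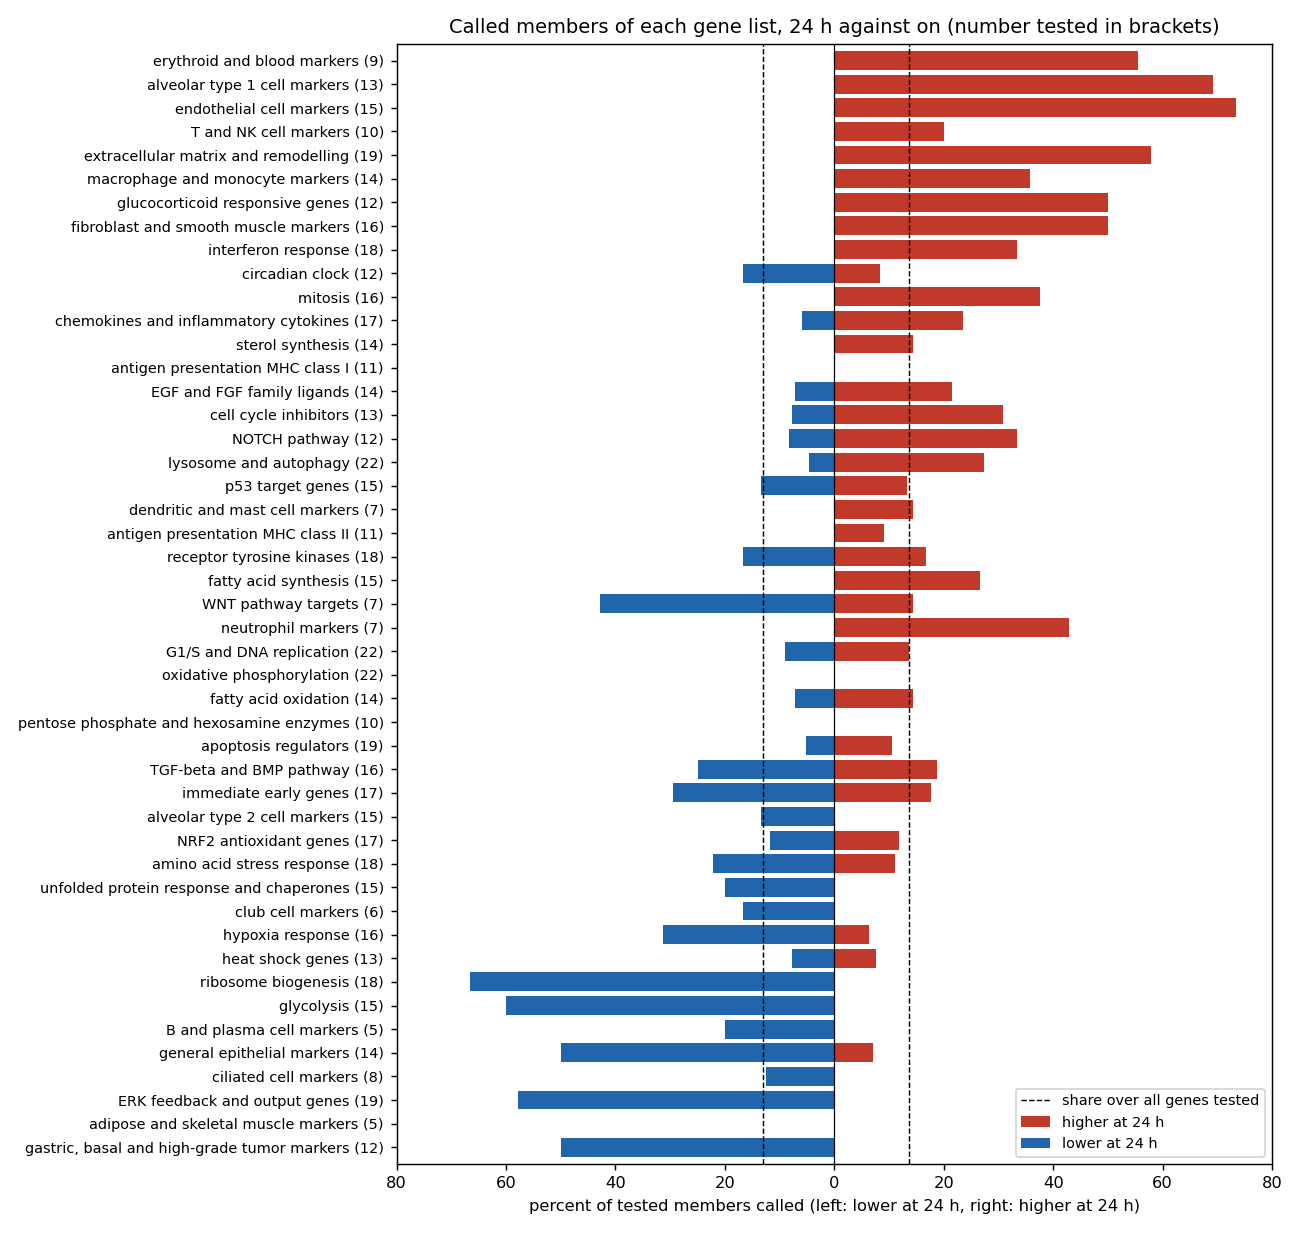
Percent of tested members called higher (red, to the right) and lower (blue, to the left) at 24 h for each gene list with at least 5 tested genes, the number tested in brackets. Dashed lines mark the shares over all genes tested, 13.6% higher and 13.1% lower. The longest bars to the right are those of endothelial and alveolar type 1 markers, and the longest to the left those of ribosome biogenesis, glycolysis and ERK output.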

How the data were processed

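The deposited scanner output lists, per the file headers, 45281 probes on 12 arrays, each with a linear mean bead intensity, a detection p-value against the array's negative control beads, the count of beads and a bead standard error in intensity units (a signal column). Per the labels, biotinylated cRNA was made from Trizol-extracted total RNA, while no source used here names the scanner software. These deposited intensity values had no visible background subtraction or normalization between arrays. The authors' deposited log2 values turned out, from their range, to be logged a second time, and this was undone before they served as an alternative. A further 24 columns were left unused.

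Intensities were background-corrected with negative control levels inferred from the detection p-values, an offset of 16 was added, and the 12 arrays were quantile-normalized and put on the log2 scale (neqc, limma 3.58.1, R 4.3.3). Probes with a detection p below 0.05 on at least 4 of the 8 arrays were tested in 1 limma model of 3 groups over all 12 arrays (9 residual degrees of freedom, 3.5 from the prior), with the contrast of 24 h minus on and Benjamini-Hochberg adjustment over all 20093 probes. The model was tested on simulated data first. GEO's platform annotation names 1 gene for 34885 probes, several for 18 and none for 10378, which are unnamed here. A gene was represented by its tested probe with the highest mean over the 8 arrays, and 18 of 4222 genes with over 1 tested probe had probes called in opposite directions. A probe that no array of a group detected got a bound as its level in that group, from the lowest signal of detected probes.

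Named genes are the 15 largest rises and 15 largest falls among called genes whose groups did not overlap, in each list up to 4 called members in each direction (the 2 brightest where fewer than 2 were called), and the brightest marker of each cell type list. Genes said to be chosen after their values were seen, and list members given only with a fold change or a count, fall outside this rule. The members and the 49 gene lists were chosen with earlier results of these data known. The mutant oncogene is not reported here. Alternatives were other background corrections, offsets, normalizations and probe filters, the authors' table, the 8 arrays alone, the BeadChip as a fixed term or random block, the replicate block, array weights, another prior and leaving out each array. The number of arrays limits the precision. Exact permutation tests used scipy 1.17.1 (Python 3.11.15) and figures matplotlib 3.10.9.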

Additional observations from a re-analysis of the deposited data

Results flagged for a closer look

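Levels at 24 h differed from those at 48 h for 5599 of 20093 probes (27.9%, adjusted p below 0.05, limma). This comparison shares the 24 h arrays with the comparison against on tumors, and of the 48 h arrays 2 shared the BeadChip of the 24 h arrays. The 15 largest rises at 24 h were chosen for being high there, and each was higher at 24 h than at 48 h. The log2 difference of 24 h minus 48 h was 5.27 for BC018473, which was at background on the 48 h arrays, so this value depends on the background level. The difference was 3.27 for Sirpb1a, 2.84 for Tmem100, 2.57 for Pcolce2 and 2.55 for Hpgd. It was 2.43 for S100a8, 2.10 for Ogn, 2.10 for Mfap4, 2.02 for Dpep1, 1.79 for Upk3b and 1.79 for Slc38a5. For Il6st it was 1.70, for Pltp 1.66, for Inmt 1.66 and for Fmo1 1.58. Among the 15 largest falls, Prm1 differed, by -0.92, and was lower at 24 h than at 48 h.

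An array stood far from the other 3 of its group for 6 of 246 groups checked, where chance gives about 1 in 20. Cxcl1 measured 6.69 on 24 h replicate 4, Prss22 4.71 on 24 h replicate 2, Prg2 5.17 on 24 h replicate 3 and Ccl6 9.60 on 24 h replicate 1. Among on arrays, Ly6g6c measured 8.33 on replicate 2 and Erbb2 8.65 on replicate 3.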

How the results depend on the processing

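The number of probes called, 5057, stayed between 4168 and 6853 under the alternatives that left out no replicate, except that a fixed BeadChip term left 138, of which 72 were higher and 66 lower, in place of 2441 and 2616. That term is estimated from the 48 h arrays alone. Without a single array the count was 3486 (without 24 h replicate 1) to 4873, with 1730 to 2423 higher and 1756 to 2450 lower. Deviations of same-numbered 24 h and on arrays from their group means correlated at 0.143, -0.121, 0.0183 and -0.267. Arrays of different numbers were not compared in this way, so whether the replicate numbers pair the samples is not settled. With the replicate number as a block 4168 probes were called, 2062 higher and 2106 lower; of 182 called genes followed through 22 alternatives (180 of them where the detection p was 0.01), 167 kept their call under this block. Of these genes, 24 kept their call under every alternative and 108 lost it with the chip as a fixed term only. The one reversal was Chil1, at 0.02 with the chip as a fixed term against -1.17, and the cause was not tested. Probes higher at 24 h made up 48.3% of calls, 41.2% with 75th percentile scaling and 55.2% with cyclic loess. The test of the share of probes detected missed the threshold at a detection p of 0.05 and of 0.01 (exact permutation p = 0.2 and 0.714), where 4 against 4 arrays cannot go below 0.0286. By its construction, the offset of 16 shrinks the fold changes of probes near background.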

Other observations

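Of 17 tested NRF2 antioxidant genes 2 rose (1 without 24 h replicate 1) and 2 fell, and of 13 tested heat shock genes 1 rose (0 without 24 h replicate 1 or on replicate 2) and 1 fell, near or below the shares over all genes. Txn1, thioredoxin, measured 9.11, 9.12, 9.39 and 8.78 at 24 h, against 10.48, 10.93, 10.63 and 10.41 in on tumors, with no overlap (-1.51 ± 0.16, adjusted p = 0.000146, and 0.0221 once a chip term was added). Dnaja1, a partner of HSP70 chaperones, fell by 1.78 (SE 0.20, adjusted p = 0.000204) and kept its call with the chip (adjusted p = 0.0221). Among chaperones of the endoplasmic reticulum and their regulators, 3 of 15 tested genes fell and none rose (1 without on replicate 1), with Hyou1 at -1.09 and Xbp1 at -0.57 (adjusted p = 0.000288 and 0.000794). The enzymes of serine synthesis split: Phgdh, the first step, rose by 0.97 ± 0.17 and Psat1, the next, fell by 0.87 (SE 0.18, adjusted p = 0.00208 and 0.00432). Of 15 tested genes of fatty acid synthesis 4 rose and none fell, among them the desaturases Scd1 (0.57 ± 0.15) and Fads1 (0.53 ± 0.10, adjusted p = 0.0165 and 0.00263). The other tested probe of Fads1 gave 0.01.

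Genes of Notch signalling, which acts in vessels, had 4 of 12 tested members higher and 1 lower, Jag2 at -0.38 (adjusted p = 0.0395), whose call was lost without any of 24 h replicates 1, 2 and 3 or on replicates 2, 3 and 4. Hey1, a Notch target, measured 9.59, 9.25, 9.27 and 9.96 at 24 h, against 8.60, 8.11, 8.15 and 8.37 in on tumors, with no overlap (1.21 ± 0.16, adjusted p = 0.000525), and Heyl rose by 0.83 ± 0.11 (adjusted p = 0.000527). Of 7 tested WNT targets 1 rose (2 without 24 h replicate 3 or on replicate 1) and 3 fell (2 without 24 h replicate 1). Notum, an inhibitor of WNT ligands, rose by 1.18 ± 0.15 and kept its call with the chip as a fixed term (adjusted p = 0.00038, and 0.0272 with the chip), and Sp5 fell by 1.57 (SE 0.25, adjusted p = 0.00124). Of 22 tested genes of lysosomes and autophagy 6 rose and 1 fell. The probes of Ctsa, a lysosomal protease, disagreed: the brightest gave 1.75 ± 0.21 (adjusted p = 0.000313) and another 0.94, both called, while 0.11, 0.06 and -0.40 were not. Fas, a death receptor, rose by 0.73 ± 0.18 (adjusted p = 0.0106, and 0.0396 with the chip). Glucocorticoid-responsive genes had 6 of 12 members higher and none lower (1 without 24 h replicate 3), and the count of higher members was 3 without 24 h replicate 1 or 4 or on replicate 2 or 3. Sgk1 rose by 0.98 ± 0.16 and Mt1 by 0.95 ± 0.15 (adjusted p = 0.00136 and 0.00121). In the fit with a chip term limma called 0 genes of the lists of endoplasmic reticulum chaperones, fatty acid synthesis, Notch, lysosome and glucocorticoid genes, with 5 lower in the first and 3, 3, 3 and 5 higher in the others at an unadjusted p below 0.05.

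Scgb1a1, the secretory protein of club cells, lay between 14.37 and 14.73 at 24 h and between 14.44 and 14.76 in on tumors, and had a change of -0.06 (adjusted p = 0.695). Tubb4b, a tubulin of cilia that other cells also make, fell by 1.22 (SE 0.10, adjusted p = 5.5e-05, and 0.0243 with the chip), while the other 7 tested ciliated cell markers were not called. Xist, the RNA that silences an X chromosome in females, measured 10.79, 10.75, 10.48 and 4.20 at 24 h, against 5.15, 11.10, 10.88 and 5.48 in on tumors, and 10.98 to 11.36 at 48 h. It was thus low on 1 array at 24 h and on 2 on arrays, and the part of sex in the differences above was not tested.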
